A study of Mus musculus with 2 samples.

Results

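The endothelial cells of brain vessels form the blood-brain barrier. Tight junctions, in which claudins are the sealing strands, close the gaps between the cells, solute carriers in their membranes bring in glucose, amino acids, hormones and lipids, and efflux pumps of the ABC family return drugs and other foreign molecules to the blood. In the mouse these properties are gained over embryonic life and after birth, and the fenestrated vessels of the choroid plexus, where an epithelium makes the barrier instead, do not have them.

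Described here are 8 genes of that barrier among the 32285 genes counted in 2 mouse libraries, chosen by symbol: the claudin Cldn5, the organic anion transporters Slco1a4 and Slco1c1, the glucose transporter Slc2a1, the amino acid transporter Slc7a5, the lipid transporter Mfsd2a, and the efflux pumps Abcb1a and Abcg2. All 8 were found in both libraries. The study developed Slide-tags, in which nuclei of a frozen tissue section are tagged with spatial barcodes before single-nucleus RNA sequencing; the positions were not used here. The adult library came from the hippocampus of 1 male C57BL/6J mouse, 56 days old and perfused through the heart before the brain was frozen. The embryonic library came from the brain of a C57BL/6J embryo at embryonic day 14 (E14), bought as a frozen whole embryo. The labels name no transgene and no treatment for either animal. With 1 library per tissue there are no replicates, no test between the tissues was possible, and age, brain region, animal and Cell Ranger version cannot be told apart. All intervals below are 95% intervals for counting error only.

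After nuclei with under 500 UMIs (unique molecular identifiers, each marking 1 captured RNA molecule) or over 5% mitochondrial UMIs were left out, 1609 adult nuclei with 15346746 UMIs (median 6607 per nucleus) and 9036 E14 nuclei with 58923882 UMIs (median 4204) remained. Besides dentate granule-like, CA1-like and CA3-like classes, the adult library held a thalamic-like and a cortical excitatory-like class. Only 1 barcode occurred in both libraries. A nucleus was counted as endothelial when it held UMIs of at least 2 of Flt1, Pecam1 and Tek, receptors and an adhesion molecule of endothelial cells. This gate took 70 adult nuclei (4.35%) and 202 E14 nuclei (2.24%). Of these, 55 and 147 also lay in the cluster of their library that carried endothelial markers, a clustering made without the 8 genes. The other 15 adult and 55 E14 gated nuclei lay in clusters of other cells and were deeper, with medians of 10998 and 23041 UMIs against 4387 and 9248 inside the cluster. Because 11 of the 55 were choroid plexus-like, the levels of the 8 genes are given both for all gated nuclei and for those inside the cluster. Levels are CPM: a gene's UMIs in all nuclei of a group, per 1000000 UMIs of any gene there.

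The endothelial identity of the gated nuclei was checked with 10 further endothelial genes. Over all gated nuclei, all 10 were present in both groups, from 106 CPM (Tie1) upwards in adult and from 74.9 CPM (Emcn) upwards in E14 nuclei. Inside the cluster they ran from 150 CPM (Tie1) and 124 CPM (Emcn) upwards. The marker list that named the cluster held these same 10 genes, so their presence there is no check. Their own median adult over E14 ratio was 1.90 (2.24 over all gated nuclei), from 0.663 for Kdr, the main VEGF receptor, to 5.28 for Adgrl4. The ratios of the 8 genes are therefore also given relative to the summed UMIs of these 10 genes, which stood at 5546 CPM in adult and 2641 CPM in E14 nuclei inside the cluster. While Kdr and Cdh5 (0.985) had ratios below 1, Adgrl4 (1353 CPM) and Ptprb (1265 CPM, ratio 3.93) weighed most in the adult sum of these 10 genes. Markers of pericytes and smooth muscle, which wrap the vessels, were present beside them: all 8 mural genes had UMIs in adult endothelial nuclei inside the cluster, summing to 4558 CPM with Rgs5 the most abundant (2243 CPM), against 19.2 CPM outside gate and cluster. The E14 sum was 777 CPM, led by Pdgfrb (194 CPM), against 59.1 CPM outside. Of the astrocyte markers, 7 summed to 1363 CPM in adult endothelial nuclei inside the cluster, led by the glutamate transporter Slc1a3 (471 CPM), against 815 CPM outside gate and cluster and 5586 CPM in astrocyte-like nuclei. Haemoglobin and other erythroid genes stood at 2274 CPM in E14 endothelial nuclei against 526 CPM elsewhere. The 23 adult nuclei with UMIs of at least 2 of Pdgfrb, Kcnj8, Abcc9 and Vtn had lower CPM of all 8 barrier genes than the 32 with UMIs of fewer (Cldn5 1809 against 2845 CPM, Slc2a1 780 against 1486 CPM). The 10 check genes were lower there too (4613 against 7496 CPM), and the 23 nuclei were deeper (median 8808 against 3346 UMIs). In the same split at E14 the levels were closer, Slc2a1 at 475 against 468 CPM and Cldn5 at 712 against 735 CPM. The 32 adult nuclei still held 1662 CPM of the mural genes, most of it Rgs5 (1550 CPM), and the 69 such E14 nuclei 130 CPM. The part of mural and astrocyte RNA in the adult levels was not tested.

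Counted over all gated nuclei, 6 of the 8 genes were at least 2 times higher in adult than in E14 endothelial nuclei, and 18.4% of the 15912 genes with at least 10 UMIs were. None was at least 2 times lower, against 24.3% of those genes. The counts inside the cluster were also 6 higher (18.1% of 14347 genes) and 0 lower (27.2%), with 6 higher again when nuclei with at least 2 of those 4 mural genes were left out. Relative to the check genes the count over all gated nuclei was 2, Slco1a4 and Abcb1a (5.43% of all genes), and Mfsd2a, at 0.431, was at least 2 times lower (64.0%). On that scale Slc2a1 was level, at 0.998, and Slc7a5 was at 0.689. Inside the cluster the relative counts were again 2 higher (6.27%) and 1 lower (56.4%). The genes were chosen with such results known, so the count describes them and is no test. In the plot of levels, Slco1a4 stands apart from the other 7 genes in the gap between adult and E14.

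**Figure D1:**
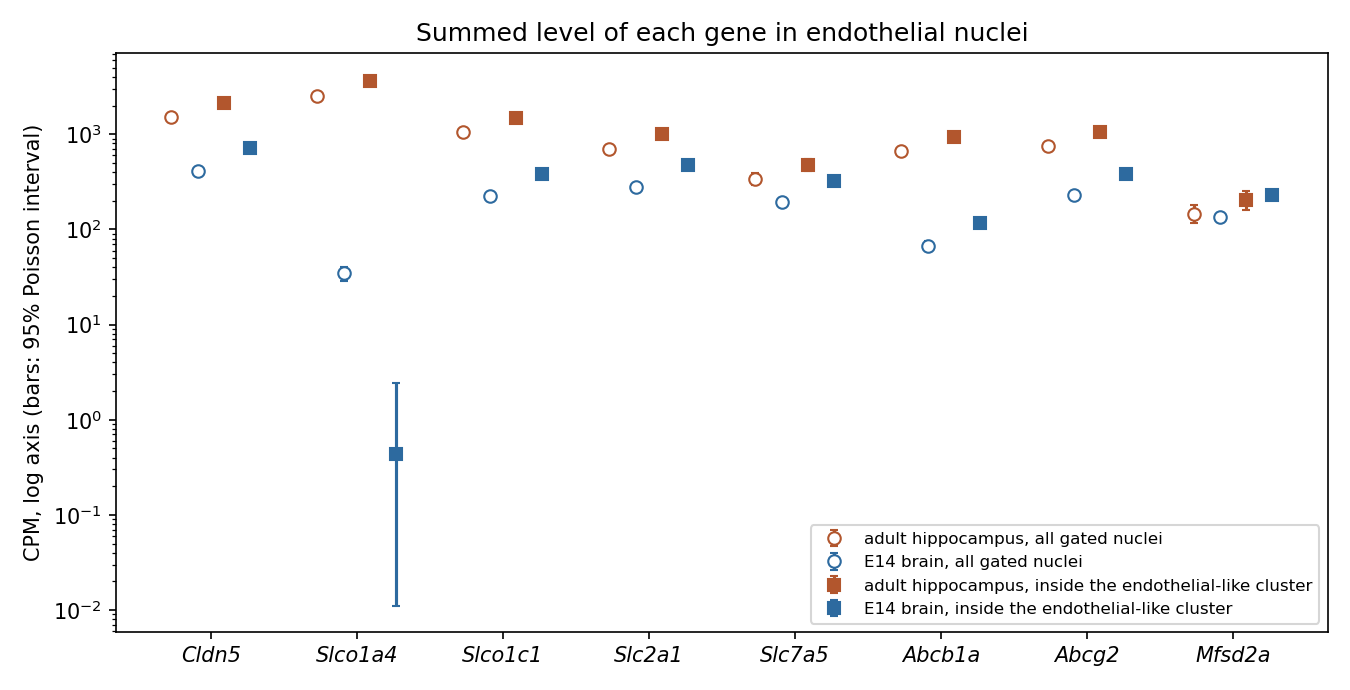
CPM (log axis) of each gene in adult (brown) and E14 (blue) endothelial nuclei, over all gated nuclei (open circles) and over those inside the endothelial-like cluster (filled squares), with 95% Poisson intervals. Slco1a4 at E14 drops from 34.5 to 0.440 CPM between the circles and the squares, while Mfsd2a has overlapping adult and E14 intervals in both.

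Claudin-5, encoded by Cldn5 (ENSMUSG00000041378, chromosome 16, 18776847 to 18778262 on the plus strand of GRCm38, a gene of 1 exon), is the main claudin of brain endothelial junctions. Its level was 2145 CPM (interval 2001 to 2296, 829 UMIs) in adult and 718 CPM (684 to 754, 1634 UMIs) in E14 nuclei inside the cluster, a ratio of 2.99 (1.42 relative to the check genes). Over all gated nuclei the levels were 1509 and 416 CPM, a ratio of 3.63. A Cldn5 UMI was seen in all 55 adult nuclei and in 136 of 147 E14 nuclei (92.5%). To compare nuclei at equal depth, each was thinned to 1000 UMIs, which left 53 adult and 146 E14 nuclei, and the gene was then in 84.9% and 52.1% of them. Per 10000 UMIs, adult nuclei ran from 4.42 over a median of 21.1 to 93.0, and E14 nuclei from 0 over a median of 6.95 to 41.1, so the ranges overlapped although the medians were apart.

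Slco1a4 and Slco1c1 are neighbours on chromosome 6 and belong to 1 family of carriers for organic anions. Slco1a4 (OATP1A4) takes up bile acids, steroid conjugates and drugs, and Slco1c1 (OATP1C1) takes up thyroxine. Slco1a4 (ENSMUSG00000030237) lies at 141805440 to 141856199 on the minus strand of GRCm38 and Slco1c1 (ENSMUSG00000030235) at 141524368 to 141570177 on the plus strand, with 235 kb and the liver transporter gene Slco1b2 between their ends. The 250 bases before their RefSeq starts (GRCm38.p6) are shown because E14 endothelial nuclei held UMIs of 1 of these neighbours and almost none of the other. In them, capitals mark ACAAT or its reverse complement ATTGT (SOX), and AGGAAG or its reverse complement CTTCCT (ETS), both strands having been searched with no overlapping matches.
Slco1a4, chr6:141856221-141856470, minus strand: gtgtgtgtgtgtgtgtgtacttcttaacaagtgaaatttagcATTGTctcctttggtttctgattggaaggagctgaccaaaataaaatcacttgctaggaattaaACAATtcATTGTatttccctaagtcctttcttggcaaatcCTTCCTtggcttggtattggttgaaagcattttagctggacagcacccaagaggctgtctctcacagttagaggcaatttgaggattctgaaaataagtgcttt
Slco1c1, chr6:141524104-141524353, plus strand: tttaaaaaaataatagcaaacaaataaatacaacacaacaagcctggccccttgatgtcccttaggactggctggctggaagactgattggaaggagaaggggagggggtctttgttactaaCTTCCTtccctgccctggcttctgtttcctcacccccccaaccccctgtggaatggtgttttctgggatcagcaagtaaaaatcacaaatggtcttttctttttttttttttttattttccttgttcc
The Slco1a4 window held 3 SOX matches and 1 ETS match, and the Slco1c1 window 0 and 1. Neither held CTTTGA or TCAAAG (TCF/LEF). Of all 32851 windows of this length, 27.7% held a SOX match, 29.5% an ETS match and 13.8% a TCF/LEF match. Among the 7 barrier genes with a window, 2 held SOX, 4 ETS and 2 TCF/LEF matches, and these are matches of letters only. The 7 genes had 9 windows, as Abcg2 had several, so these counts are per gene and the shares above per window. The Abcb1a window, which held TCF/LEF and ETS matches, ended at 8567090 on chromosome 5. That is far upstream of the gene start at 8660077 given below.

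In adult endothelial nuclei inside the cluster Slco1a4 stood at 3586 CPM (3399 to 3779, 1386 UMIs), and all 55 nuclei held it. The lowest adult nucleus had 1.47, the median 35.7 and the highest 114 UMIs per 10000. In the 147 E14 nuclei inside the cluster a single UMI was found, 0.440 CPM (0.0111 to 2.45), a ratio of 8158 (interval from 1462). When counts under 3 were set to 3 in either group, the ratio was 2719, the highest of the 14347 genes compared, ahead of Ly6a (877) and Ly6c1 (583), GPI-anchored surface proteins. Relative to the check genes the ratio of 8158, without that floor, became 3885. Over all gated nuclei, at 2532 and 34.5 CPM, it was 73.5, because 9 of the 11 gated choroid plexus-like nuclei held 138 of the 140 Slco1a4 UMIs. The 32 adult nuclei with UMIs of fewer than 2 of the 4 mural genes had 4595 CPM and the 69 such E14 nuclei had 0 UMIs.

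At E14, Slco1a4 was instead highest in the choroid plexus-like cluster, at 252 CPM (230 to 276), with 489 UMIs in 75 of 133 nuclei (56.4%, and 22.3% after thinning). Values of this cluster, here and below, leave out its 11 gated nuclei, of which 9 held 138 further Slco1a4 UMIs. The 133 nuclei differed: the median nucleus had 1 UMI, the highest 57, and the top 10 nuclei held 49.3% of their UMIs. Outside endothelial and choroid plexus-like nuclei the level was 0.835 CPM, 44 UMIs in 32 of 8661 nuclei (0.369%). Ttr, the transthyretin made in bulk by choroid plexus epithelium, was seen in 80.6% of those same 8661 nuclei, at 363 CPM. Ttr stood at 18590 CPM inside the choroid plexus-like cluster and at 198 CPM in endothelial nuclei inside theirs, and the matching Slco1a4 levels were 252 and 0.440 CPM. No choroid plexus class was found in the adult library, in which 7 of 8 choroid plexus markers, Ttr included, had no UMI in endothelial nuclei inside the cluster. The relatives of Slco1a4 on chromosome 6 had few UMIs: Slco1a1, Slco1a5 and Slco1a6 had 0, 0 and 1 UMIs in adult gated nuclei, and Slco1a5 had 9 UMIs in the choroid plexus-like cluster.

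Slco1c1 was present at both ages. Its levels inside the cluster were 1475 CPM (1356 to 1601) in adult and 386 CPM (361 to 413) in E14 nuclei, a ratio of 3.82 (1.82 relative to the check genes). Over all gated nuclei they were 1049 and 225 CPM, a ratio of 4.66. It was seen in 51 of 55 adult and 109 of 147 E14 nuclei, and after thinning in 71.7% and 30.1%. The adult median was 15.4 and the E14 median 2.71 UMIs per 10000, with the highest nuclei at 72.8 and 56.5. Slco1c1 also had a second site in adult tissue: astrocyte-like nuclei held it at 408 CPM (365 to 454), in 82 of 102 nuclei (80.4%), 190 times the level of dentate granule-like neurons (107 to 371). A cluster of 21 nuclei left without a name, number 16, which carried astrocyte markers, had 284 CPM. Endothelial nuclei (gate or cluster) held 60.5% of the adult Slco1c1 UMIs and astrocyte-like nuclei 32.1%, whereas for Slco1a4 these shares were 98.5% and 0.0662%. At E14 Slco1c1 was low outside endothelial nuclei, 16.5 CPM in the choroid plexus-like cluster and 2.50 CPM in radial glia-like nuclei, the astrocytes' precursors.

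**Figure D2:**
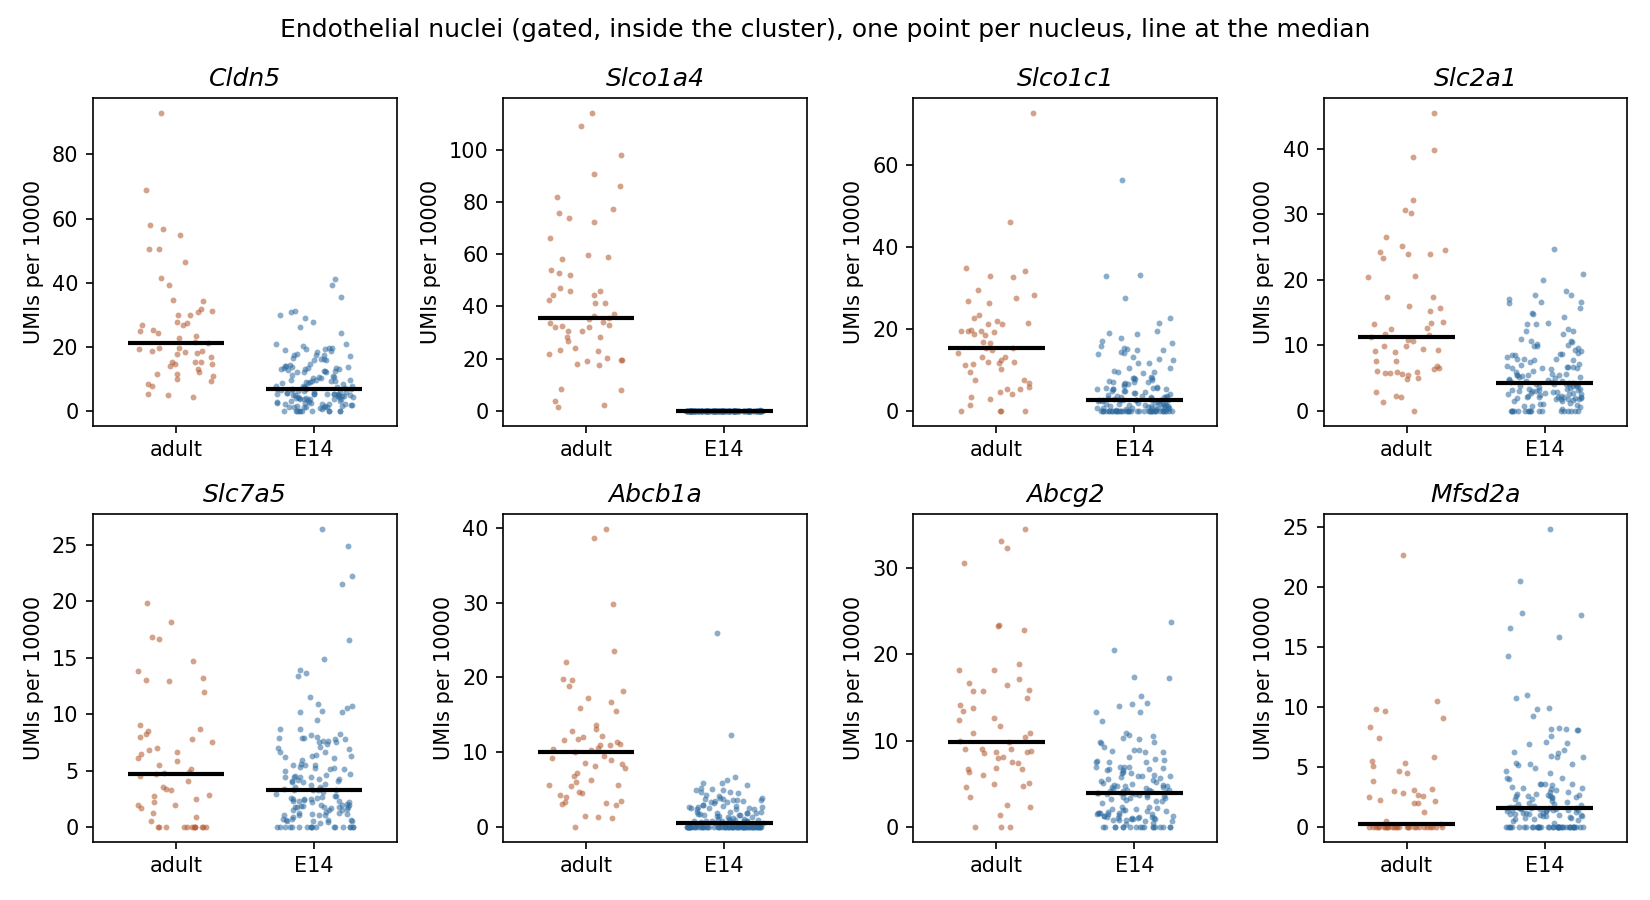
UMIs per 10000 of each gene in single endothelial nuclei (gated and inside the cluster; 55 adult, 147 E14, 1 point each), with the median as a line. Adult and E14 points overlap for 7 genes and stand apart for Slco1a4, for which 146 of 147 E14 nuclei are at 0.

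Slc2a1 (GLUT1, ENSMUSG00000028645, chromosome 4, 119108711 to 119137983, plus strand) carries glucose across the endothelium. It stood at 1009 CPM (911 to 1114) in adult and 473 CPM (446 to 503) in E14 nuclei inside the cluster, a ratio of 2.13 that became 1.01 relative to the check genes. Over all gated nuclei the levels were 702 and 281 CPM, a ratio of 2.50 (0.998 relative to the check genes). It was seen in 54 of 55 and 129 of 147 nuclei (98.2% and 87.8%), and after thinning in 73.6% and 38.4%. Elsewhere in the adult library Slc2a1 had 82.4 CPM in cluster 16 (9 UMIs), 55.1 CPM (40.2 to 73.7) in oligodendrocyte-like and 39.5 CPM in astrocyte-like nuclei, and the last 2 levels were 12.8 and 9.21 times that of dentate granule-like neurons (4.29 CPM). At E14 it was 33.0 CPM in choroid plexus-like and 27.8 CPM in radial glia-like nuclei, 3.40 and 2.87 times cortical excitatory-like neurons (9.70 CPM).

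Slc7a5 (LAT1, ENSMUSG00000040010, chromosome 8, 121881150 to 121907694, minus strand) is the light chain of the carrier of large neutral amino acids. It had 476 CPM (410 to 550) in adult and 323 CPM (300 to 347) in E14 nuclei inside the cluster, a ratio of 1.47 on the CPM scale and 0.702 relative to the check genes, so its direction depended on the scale. The gated levels were 338 and 196 CPM, a ratio of 1.73 (0.689 relative to the check genes). It was found in 43 of 55 adult nuclei (78.2%) and 129 of 147 E14 nuclei (87.8%), and after thinning in 47.2% and 34.9%. Its partner Slc3a2, the heavy chain, had 326 and 276 CPM, a ratio of 1.18 (0.969 to 1.43; 0.563 relative to the check genes). Neurons held Slc7a5 at low levels, up to 22.3 CPM in adult cortical excitatory-like nuclei, and no UMI was found in 237 oligodendrocyte-like nuclei, which allows up to 3.67 CPM.

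Mfsd2a (ENSMUSG00000028655, chromosome 4, 122946850 to 122961188, minus strand) carries lysophospholipids with omega-3 fatty acids and is known for holding vesicle traffic down in barrier endothelium. Among the 8 genes it alone was not higher in adult endothelial nuclei inside the cluster on the CPM scale, at 204 CPM (162 to 255) against 228 CPM (208 to 248), a ratio of 0.898 (0.427 relative to the check genes, 1.38 without nuclei that held at least 2 of the 4 mural genes). Over all gated nuclei the levels were 146 and 136 CPM, a ratio of 1.08 (0.847 to 1.36), and 0.431 relative to the check genes. The share of nuclei with a UMI was 50.9% in adult and 72.8% in E14, and after thinning 18.9% and 22.6%. In adult tissue it was also in oligodendrocyte precursor-like nuclei, 65.5 CPM (32.7 to 117, 8 of 28 nuclei), and astrocyte-like nuclei, 29.6 CPM (18 of 102 nuclei), 24.4 and 11.1 times dentate granule-like neurons, with 64.1 CPM in cluster 16 (7 UMIs). At E14, radial glia-like nuclei had 31.0 CPM (26.7 to 35.8) and held 17.1% of all Mfsd2a UMIs, with 12.4 CPM in cortical excitatory-like neurons.

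Of the efflux pumps, Abcb1a (ENSMUSG00000040584, chromosome 5, 8660077 to 8748575, plus strand) encodes the P-glycoprotein of mouse brain endothelium. Its levels inside the cluster were 931 CPM (838 to 1033) in adult and 117 CPM (103 to 132) in E14 nuclei, a ratio of 7.97 (3.79 relative to the check genes), and over all gated nuclei 666 and 67.7 CPM, a ratio of 9.83. It was seen in 54 of 55 adult nuclei (98.2%) against 82 of 147 E14 nuclei (55.8%), and after thinning in 58.5% and 15.1%. Adult nuclei had a median of 9.99 and E14 nuclei of 0.542 UMIs per 10000, with overlap in the upper E14 range, whose highest nucleus had 26.0. Abcb1a was nearly absent from other cells: 17 UMIs in the adult and 42 in the E14 nuclei outside gate and cluster, 1.15 and 0.768 CPM. Its paralog Abcb1b, 49.6 kb downstream, had 5 UMIs in adult and 8 in E14 gated nuclei. Reads that match both paralogs cannot be assigned to either, so both counts are uncertain by an amount that was not tested.

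Abcg2 (ENSMUSG00000029802, chromosome 6, 58584523 to 58695676, plus strand) encodes the breast cancer resistance protein, which exports many drugs and urate. It had 1055 CPM (956 to 1163) in adult and 381 CPM (356 to 407) in E14 nuclei inside the cluster, a ratio of 2.77 (1.32 relative to the check genes). All gated nuclei had 756 and 232 CPM, a ratio of 3.25. After thinning, 62.3% of adult and 31.5% of E14 nuclei held it. At E14 endothelial nuclei (gate or cluster) held 40.9% of the Abcg2 UMIs, a share below those of the other genes except Slco1a4. The Slco1a4 share of 20.8% lay almost wholly in gated choroid plexus-like nuclei. Abcg2 was found in every E14 class at 10.9 CPM or more. Fibroblast or mesenchyme-like nuclei had 69.9 CPM (60.2 to 80.6, 119 of 381 nuclei) and microglia or macrophage-like nuclei 67.4 CPM (48.2 to 91.8, 25 of 82 nuclei), 2.10 and 2.03 times the 33.2 CPM of cortical excitatory-like neurons. In the adult library, oligodendrocyte precursor-like nuclei had 71.4 CPM (36.9 to 125), 4.75 times the 15.0 CPM of dentate granule-like neurons, and cluster 12 had 74.3 CPM (7 UMIs).

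**Figure D3:**
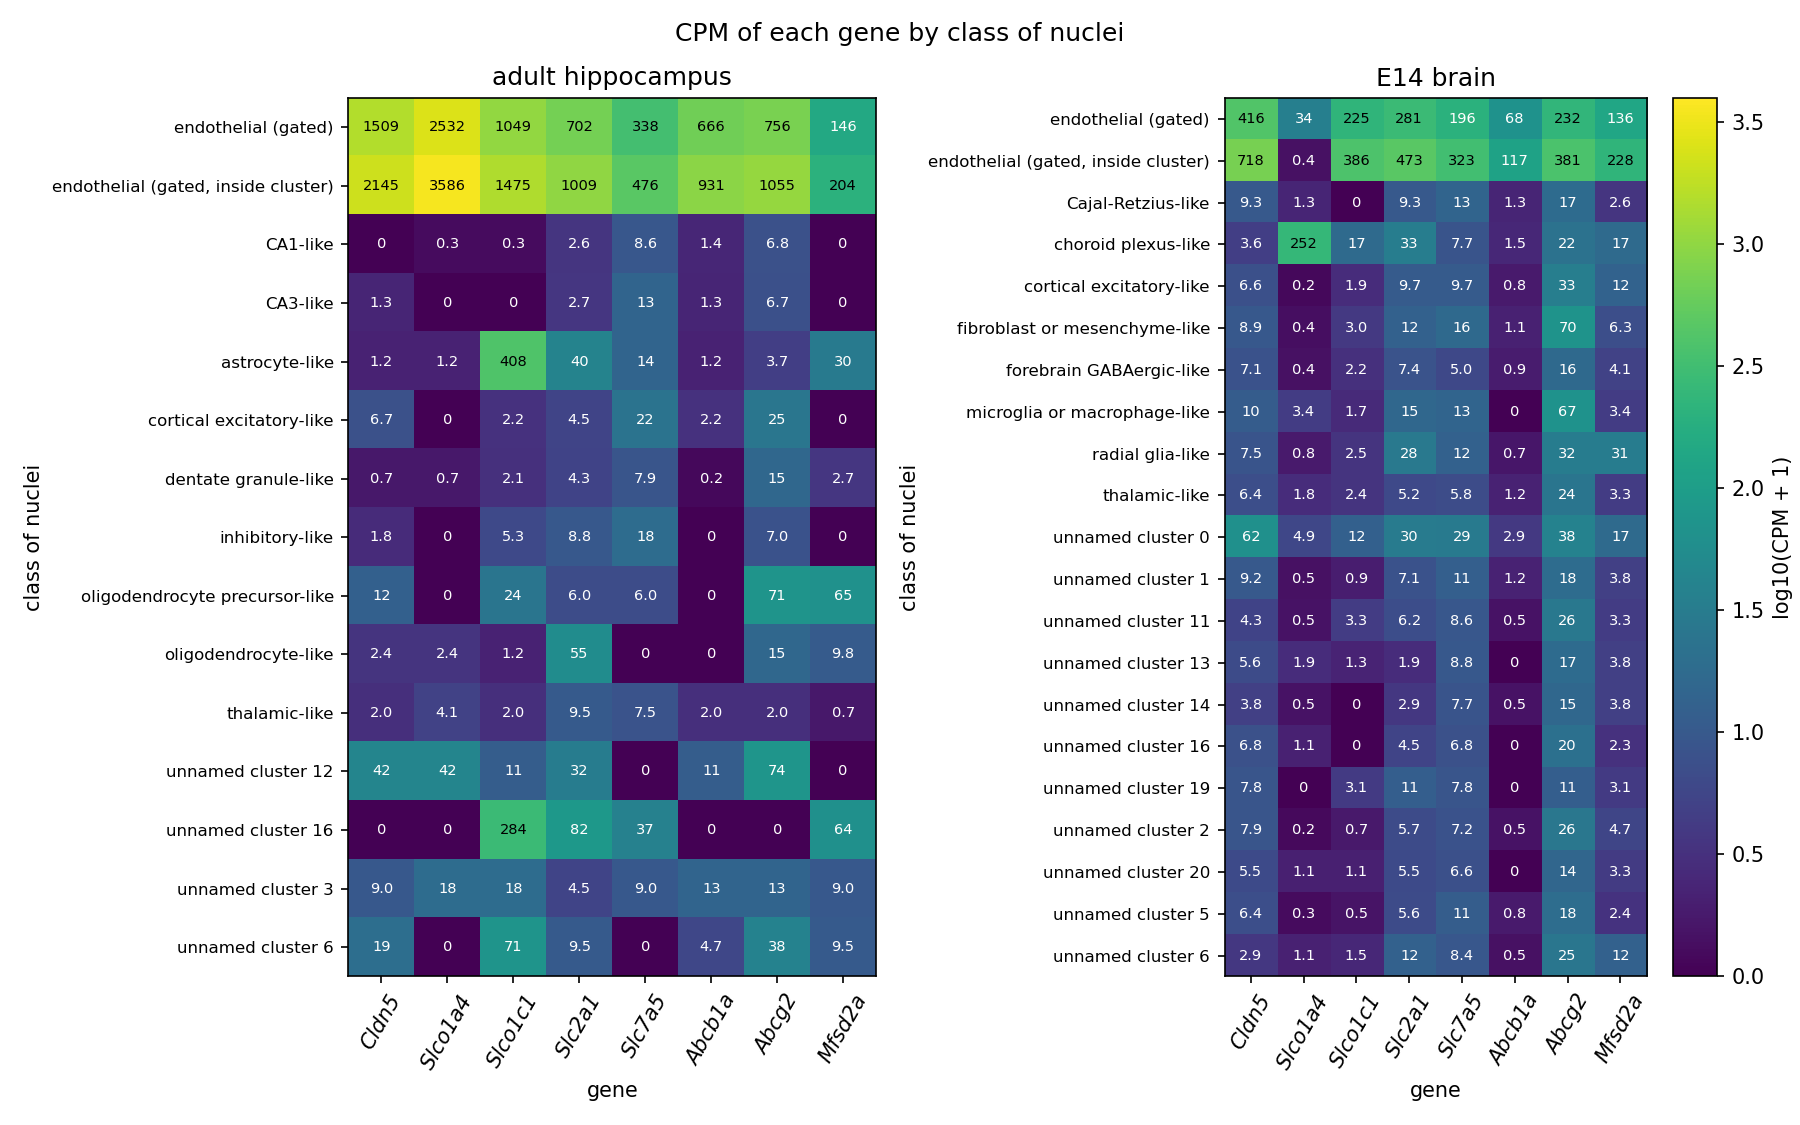
CPM of each gene (columns) in each class of nuclei (rows) of the adult (left) and E14 (right) library, printed in each cell and coloured by log10(CPM + 1). The endothelial rows are highest for all 8 adult genes, and at E14 for all but Slco1a4, which peaks at 252 CPM in the choroid plexus-like row.

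Across classes, endothelial nuclei were the highest for 8 of 8 genes among 14 adult classes and for 7 of 8 among 20 E14 classes. All 8 genes were at least 4 times higher in adult gated nuclei than in all other nuclei, where 8.81% of the 17930 genes with at least 10 UMIs were, and 7 of 8 at E14, where 4.44% of 21835 genes were. Inside the cluster the counts were again 8 (11.1% of 17896 genes) and 7 (5.98% of 21730 genes). There the adult ratios ran from 43.1 for Mfsd2a to 2407 for Slco1a4, and at E14 from 14.5 for Abcg2 to 164 for Slco1c1, with Slco1a4 at 0.0451. A low-depth E14 cluster left unnamed, number 0 (1051 nuclei, median 736 UMIs), had 62.5 CPM of Cldn5, 9.46 times cortical excitatory-like neurons, with 11.7 CPM of Slco1c1 and 2.93 CPM of Abcb1a. The leading genes of that cluster were the haemoglobin genes Hbb-bt, Hbb-bs and Hba-a1. Its 64 Cldn5 UMIs lay in 62 nuclei. In the adult library, all 4 Cldn5 and all 4 Slco1a4 UMIs of cluster 12, which carried microglia markers, fell in a single nucleus for each gene.

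**Figure D4:**
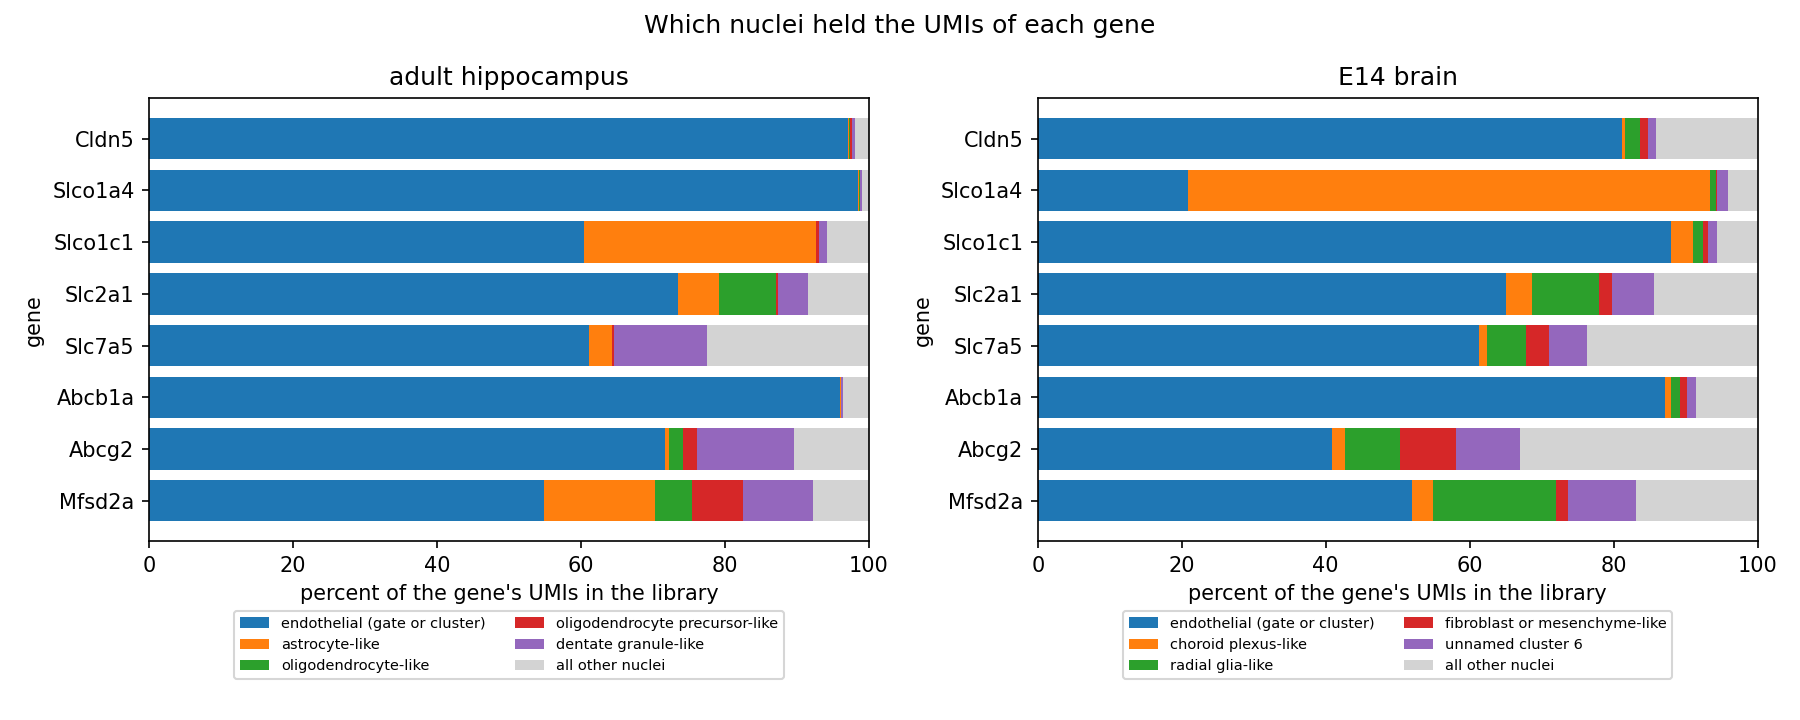
Percent of the UMIs of each gene in the adult (left) and E14 (right) library held by endothelial nuclei (blue) and other classes. Blue (gate or cluster) covers over 95% for Cldn5, Slco1a4 and Abcb1a in the adult. Of the E14 Slco1a4 UMIs, 72.7% lie in choroid plexus-like nuclei outside the gate (orange, right). The blue part of that bar is 140 UMIs, of which 138 lie in gated nuclei of the choroid plexus-like cluster. Astrocyte-like nuclei hold 32.1% of the adult Slco1c1 UMIs (orange, left).

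Single endothelial nuclei often held most of the genes. Inside the cluster the median adult nucleus had UMIs of 7 of the 8, and 26 of 55 nuclei (47.3%) had all 8, while the median E14 nucleus had 6 and 1 of 147 nuclei had all 8. After thinning to 1000 UMIs the medians were 5 and 2, from 1 to 8 in adult and from 0 to 6 in E14 nuclei.

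Within E14 endothelium the genes were set against growth and fenestration markers. Plvap, the protein of fenestral diaphragms that is lost from barrier vessels, was found in 38 of 147 E14 nuclei inside the cluster (25.9%) and 2 of 55 adult nuclei (3.64%). Over all gated E14 nuclei all 8 genes had higher CPM in nuclei with Plvap, as did 47.8% of 15320 genes, but inside the cluster only 2 of 8 did (43.6% of 13661 genes), with Abcb1a at 0.693 (0.533 to 0.897), Slco1c1 at 0.805 (0.701 to 0.924) and Cldn5 at 0.845 (0.764 to 0.934) times the level in nuclei without it. Nuclei with a UMI of the proliferation genes Mki67 or Top2a (95 of 147 inside the cluster) were set against the other 52. Mfsd2a was 0.443, Slc7a5 0.501, Slco1c1 0.555, Slc2a1 0.611, Cldn5 0.690 and Abcg2 0.700 times as high, with intervals below 1, and Abcb1a was 0.937 (0.674 to 1.33). Of 13660 genes 47.2% were lower in these nuclei, 7.53% with an interval below 1. Over all gated nuclei (138 against 64) the same 6 genes, from 0.331 for Mfsd2a to 0.524 for Abcg2, and Abcb1a, at 0.662 (0.478 to 0.936), had intervals below 1, as did 9.25% of 15319 genes. Slco1a4 went the other way there, with 140 UMIs against 0, of which 138 lay in choroid plexus-like nuclei, and had 1 UMI against 0 inside the cluster. Both splits moved with depth, at medians of 16503 against 7922 UMIs for Plvap and 12418 against 5778 for the proliferation genes. When all gated nuclei were thinned to 1000 UMIs, 5 of 8 genes were higher in the 9 nuclei that still had Plvap (45.0% of 5010 genes), each with an interval that held 1. The part of depth in the ratios inside the cluster and in those of the proliferation genes was not tested.

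Other genes of the barrier, from lists chosen with earlier results of these data known, are given for nuclei inside the cluster, where the median ratio of all 14347 genes was 0.911, 18.1% of them were at least 2 times higher in adult and 27.2% lower. Relative to the check genes these shares were 6.27% and 56.4%. Dividing by the check genes, whose summed ratio was 2.10, lowers each ratio by that factor, so directions of ratios between 1 and 2.10 depend on the scale. Of 17 other solute carriers 9 were at least 2 times higher in adult and 4 lower (median ratio 2.20), and 4 higher and 6 lower relative to the check genes. Higher were Slc16a1, the monocarboxylate transporter for lactate and ketone bodies (158 against 6.15 CPM, ratio 25.6), Slc19a3, a thiamine transporter (22.9), Slc1a1, a glutamate transporter (15.0), and Slc6a6, the taurine transporter (4.11). Lower were Slc7a8, a neutral amino acid carrier (2 against 200 UMIs, ratio 0.0589), Slc38a5, a glutamine carrier (0.239), and Slc7a1, the cationic amino acid carrier (476 against 1206 CPM, ratio 0.395). Also lower was Slc2a3, a glucose transporter (0.441), on 3 against 40 UMIs with an interval that held 1 (0.0874 to 1.39). Over all gated nuclei the ratio of Slc2a3 was 1.27 (0.664 to 2.26). Slc6a6 stood at 1.96 relative to the check genes. Among 6 measured efflux pumps Abcc4 (442 against 31.6 CPM) and Abcc6 (10.0) were higher on both scales and the cholesterol exporter Abca1 (0.213) lower, and relative to the check genes 3 were lower, Abca1 (0.101), Abcc5 (0.283) and Abcg1 (0.372). Of 13 measured junction genes 4 were higher and 2 lower (1 and 5 relative to the check genes). Higher were occludin (Ocln, 5.65), Jam2 (3.82), Cgnl1 (2.64) and Tjp1 (2.10, encoding ZO-1), of which Ocln alone was at least 2 times higher relative to the check genes and Tjp1 was at 0.998, while Cdh5, the cadherin of endothelial contacts, was at 0.985 (0.814 to 1.18). The 2 lower genes, Marveld2 (1 against 25 UMIs) and Cgn (0 against 12 UMIs), had intervals that held 1.

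Caveola genes were higher in the adult, Cavin2 by 44.1 times (155 against 3.52 CPM), Cav2 by 9.42, Cavin1 by 3.83 and Cav1 by 3.34 times, and Plvap was lower (0.176, and 0.0837 relative to the check genes). Relative to the check genes Cavin1 (1.82) and Cav1 (1.59) were under 2, which left 2 of 5 higher. Of 7 receptors of transcytosis, the insulin-like growth factor receptor Igf1r was higher (2.26, and 1.07 relative to the check genes), the reelin receptor Lrp8 lower (0.266), and the transferrin receptor Tfrc at 1.75 (0.833 relative to the check genes). In the Wnt list, the pathway that induces the barrier, 6 of 15 genes were higher and 0 lower, among them Lef1 (1136 against 382 CPM, ratio 2.97), Sox17 (4.23) and the Wnt inhibitor Notum (16.0), with the Wnt target Apcdd1 at 1.12. Relative to the check genes Notum (7.61) and Sox17 (2.01) were higher and 2 genes lower, with Apcdd1 at 0.533. Of 10 transcription factors 4 were higher, Sox18 (4.82), Foxc1 (3.56), Foxf2 (3.21) and Foxq1 (3.13), and 0 lower. On the scale of the check genes 1 was higher, Sox18 (2.29), and 2 were lower, Ppard (0.384) and Sox7 (0.245). Vessel segment genes were mixed, with 4 of 8 arterial genes higher and 2 lower, and 2 of 8 venous genes higher and 3 lower. Relative to the check genes these were 1 and 3 arterial and 0 and 5 venous genes. Of 7 measured growth genes 0 were higher and 6 lower, including the tip cell factor Angpt2 (28.5 against 173 CPM, ratio 0.164) and Top2a (2 against 763 UMIs). The growth list's median was 0.0154, and 0.360 with counts under 3 set to 3, an upper bound since 5 of the 7 genes had such counts in adult nuclei.

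**Figure D5:**
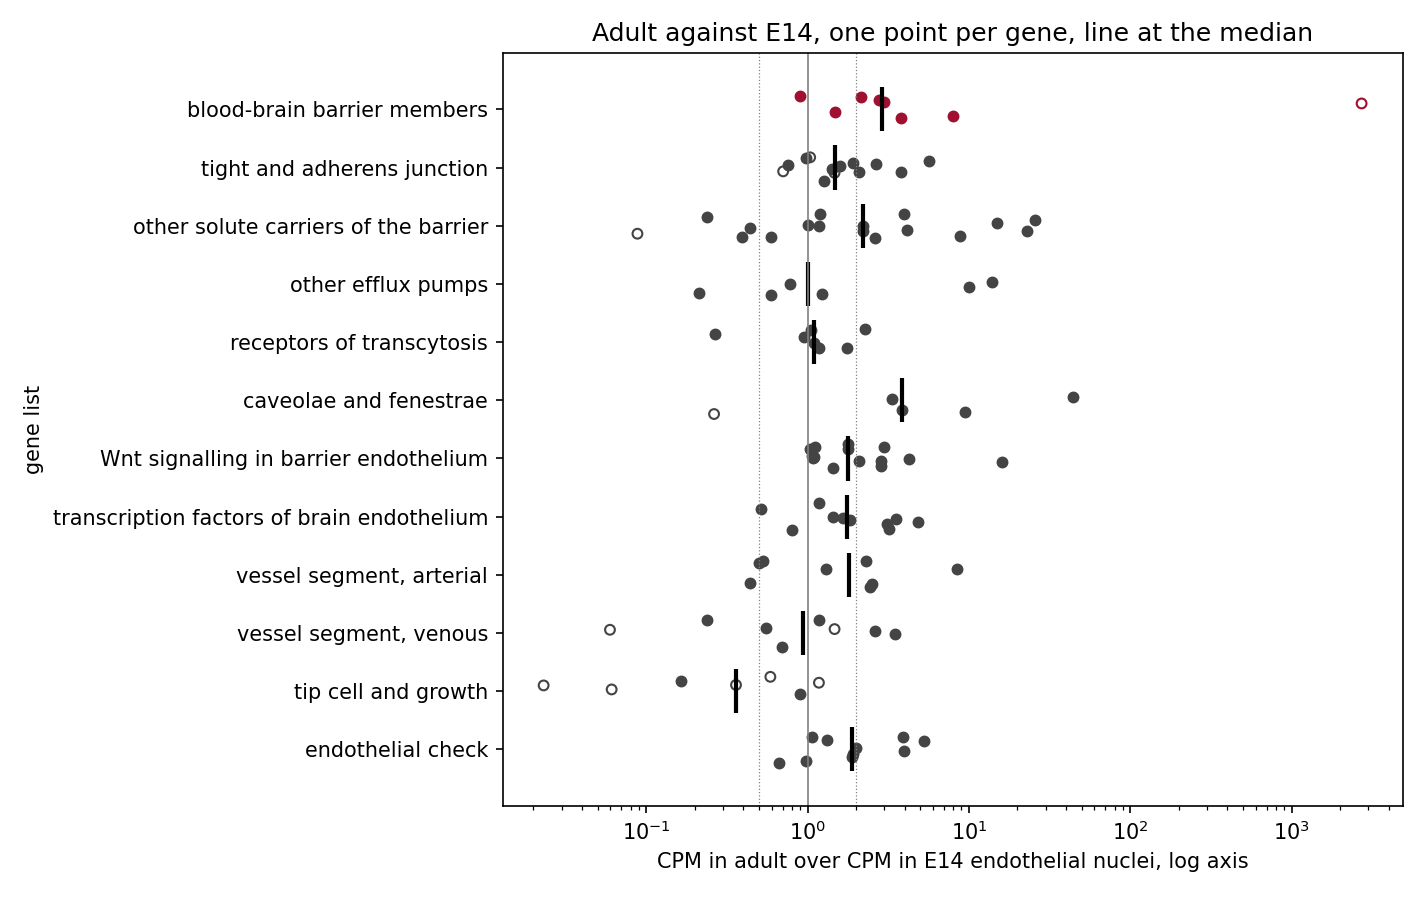
Adult over E14 ratio of CPM (log axis) for each measured gene of each list in endothelial nuclei inside the cluster, with list medians as black lines, dotted lines at 0.5 and 2, and open points where a count under 3 was set to 3. The barrier genes have a median of 2.88 and Slco1a4 an outlying 2719, and the 10 endothelial check genes have a median of 1.90.

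Likeness of pattern was measured as Pearson's r of log2(CPM + 1) over 34 classes of both libraries, which share library and depth within a tissue. The most like gene of 16707 was Itm2a for Cldn5 (0.888) and Abcg2 (0.861), Epas1 for Slco1c1 (0.919), Btg4 for Slco1a4 (0.814), Nod1 for Slc2a1 (0.860), Col4a1 for Slc7a5 (0.805), the pericyte gene Rgs5 for Abcb1a (0.923) and Rftn2 for Mfsd2a (0.849). Among the 8 themselves r was highest for Cldn5 with Abcg2 (0.861) and with Abcb1a (0.818), and lowest for Slco1c1 with Abcg2 (0.245). These are descriptions over classes that hold 1 endothelial value per library.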

How the data were processed

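The authors aligned the reads to mm10 with intronic reads included and deposited the counts of UMIs for every gene and barcode without normalisation. The file headers give Cell Ranger 6.1.2 (adult) and 7.0.1 (E14). CellBender, named in the methods for the embryo, was taken as not applied. No column belonged to another sample.

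Nuclei with at least 500 UMIs and at most 5% mitochondrial UMIs were kept. Clustering used Seurat 5.3.0 in R 4.3.3 (2000 variable genes without the 8 genes, 30 components, resolution 0.8). Cluster names needed over 50% of a marker list to be detected (10% of nuclei, 2-fold), and no other list with more markers among the leading genes. Adult cluster 16 was left unnamed because Otx2, of the choroid plexus list, was among its leading genes and no astrocyte marker was. Low-depth clusters also needed a marker, and no mitochondrial gene, among their leading genes. This naming rule was set after the clusters were seen. Scrublet (scanpy 1.11.5) marked 6 and 4 nuclei as doublets by its automatic threshold, so the 21 and 653 highest scores were used in an alternative. These included 1 of the 55 adult and 31 of the 147 E14 endothelial nuclei inside the cluster. For the adult over E14 ratios this alternative was run on all gated nuclei and not inside the cluster. Intervals are exact Poisson, exact binomial (Clopper-Pearson) and exact conditional binomial, from scipy 1.17.1. A count of 0 was taken to allow 3 counts. Ratios were tested on simulated Poisson counts that did not vary between nuclei beyond counting error. Thinning was checked on adult nuclei only for the number of UMIs left. GENCODE vM21 (GRCm38) gave the gene positions and RefSeq the promoters.

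The 8 genes and all lists were chosen with earlier results of these data known. Named genes are the 8, the gate genes, list members with the most UMIs or largest ratios, paralogs, and the 3 most like genes. Ly6a, Ly6c1, Ttr and the mural and astrocyte genes shown were named after their values were seen, as were the settings without nuclei holding at least 2 of 4 mural genes and inside the cluster relative to check genes. The level of 1 astrocyte marker is not reported here.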

Additional observations from a re-analysis of the deposited data

Results flagged for a closer look

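Slco1a4 stood on opposite sides of 1 in the 2 libraries when endothelial nuclei inside the cluster were set against all other nuclei. The adult ratio was 2407 (1583 to 3853) and the E14 ratio 0.0451 (0.00114 to 0.252), while the other 7 genes were above 1 in both. It was picked out because the endothelial contrast went in opposite directions at the 2 ages. The difference was not tested, since each tissue has 1 library.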

How the results depend on the processing

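No paired analysis was possible because each tissue has 1 library, and for the same reason no replicate could be left out. The count of 6 of 8 genes at least 2 times higher in adult endothelial nuclei stayed at 6 with all 3 gate genes, with the cluster in place of the gate, with both, at a minimum of 2000 UMIs, at a maximum of 1% mitochondrial UMIs, without likely doublets, without mitochondrial genes and Malat1, and inside the cluster without nuclei holding at least 2 of 4 mural genes. It was 2 relative to the 10 check genes, over gated nuclei and inside the cluster alike (the latter and the mural setting were chosen after seeing the data), where Mfsd2a went from 1.08 to 0.431 (gated), Slc2a1 to 0.998 (gated) and Slc7a5 to 0.689 (gated) and 0.702 (inside the cluster). The 8 of 8 genes higher in E14 nuclei with Plvap became 5 after thinning (45.0% of all genes), which left 9 nuclei with Plvap, with Slco1a4 at 0, Slco1c1 at 0.772 and Abcb1a at 0.782 times the level without it. Inside the cluster they became 2, with Slco1a4 at 0, Slco1c1 at 0.805, Slc7a5 at 0.940, Cldn5 at 0.845 and Mfsd2a at 0.844. List entries at least 2 times lower in adult went from 20 to 13 when at least 50 UMIs were asked for, since fewer genes were then measured. Inside the cluster and relative to the check genes, a setting chosen after seeing the data, 13 entries were higher and 36 lower, against 36 and 20 on the CPM scale in the same nuclei. The causes of the other moves were not tested. Of the summary counts 31 were unchanged or within 1.5 times and 7 were not, and of the other values 111 moved by less than their counting error, 60 by more and 10 crossed 1 from a main interval that excluded it. In all 17 ratios crossed 1, the other 7 being 5 of Mfsd2a between adult and E14 and 2 of Abcb1a by Plvap. The 55 adult nuclei with 386555 UMIs allow 7.76 CPM for a gene with no UMI.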
